A study of Mus musculus with 6 samples.

Results

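The genes described here build the extracellular matrix of the mouse hippocampus, including the perineuronal nets. They number 43 of the 55471 genes in the count table and were selected by name, with Frem3 and its relatives among them, from results of the same genotype comparison that is given below. Their counts and fold changes are therefore a description of these genes, and they support nothing about the group as a whole. All 43 genes were measured in every library and all passed the filter on low counts.

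Total RNA from the hippocampus of C57BL/6 mice (C57BL/6J in the study's methods) aged 3 to 6 months was sequenced in 6 libraries, 3 labelled Control and 3 labelled CBP-ifKO. In CBP-ifKO mice a floxed Crebbp gene, which encodes the histone acetyltransferase CBP, was recombined by creERT2, a tamoxifen-dependent Cre recombinase driven by the Camk2a promoter. Mice of both groups received tamoxifen in corn oil (20 mg/mL) by the intragastric route, in 5 doses given every other day. The series design describes the controls as littermates negative for the CaMKIIα-creERT2 driver, whereas the description field of the Control samples reads Camk2a_creERT2. The driver is active in forebrain excitatory neurons, so that glia, vessels, fibroblasts and interneurons keep their CBP, and according to the methods each library pooled the hippocampi of several females. Crebbp had 208.6, 156.4 and 208.5 CPM (read counts relative to the library total, after TMM scaling) across the Control replicates and 108.6, 87.1 and 99.4 CPM across the CBP-ifKO replicates. Esr1, part of which is contained in creERT2, had 5.65 to 6.29 CPM in Control against 63.6 to 69.4 CPM in CBP-ifKO (a log2 fold change of 3.45 ± 0.10 SE, adjusted p 7.9e-13 by edgeR). These 2 genes separated the labelled groups in all 6 libraries.

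The matrix between brain cells is built on hyaluronan rather than on collagen fibers. Lecticans, which are chondroitin sulfate proteoglycans, bind hyaluronan at one end and tenascins at the other, link proteins hold them in place, and the dense form of this meshwork around some neurons is the perineuronal net. Collagens, laminins and small leucine-rich proteoglycans belong mainly to the basement membranes of vessels and to the meninges, whereas metalloproteases cut the matrix and tissue inhibitors restrain them.

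Library totals ran from 10199008 to 14950257 counts, and replicates varied by 6.81% (biological coefficient of variation, edgeR). Of 17981 genes tested, 1149 passed an adjusted p of 0.05, that is 6.39% of the genes in either direction, 1.40% higher and 4.99% lower in CBP-ifKO. The higher genes were 21.9% of these calls, a share that became 43.5% when library totals replaced TMM scaling and 33.8% when trends on GC content and gene length were removed. Among the 43 matrix genes, 13 passed, 2 of them higher (Frem3 and Col11a1) and 11 lower (Bcan, Ncan, Vcan, Dcn, Col3a1, Col5a1, Col12a1, Col18a1, Col6a1, Col23a1 and Adamts1). The median log2 fold change of the 43 genes was -0.14, beside -0.0033 over all genes tested. The Control and CBP-ifKO libraries did not overlap for 21 matrix genes, 2 higher and 19 lower, where 25.6% of all genes tested did not overlap. With the Wald test of DESeq2, which the study used, 11 of the 38 matrix genes with an adjusted p passed, beside 7.27% of all genes with one. In bulk tissue, fewer cells of a type and less RNA per cell cannot be told apart, and this holds for every difference below.

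**Figure D1:**
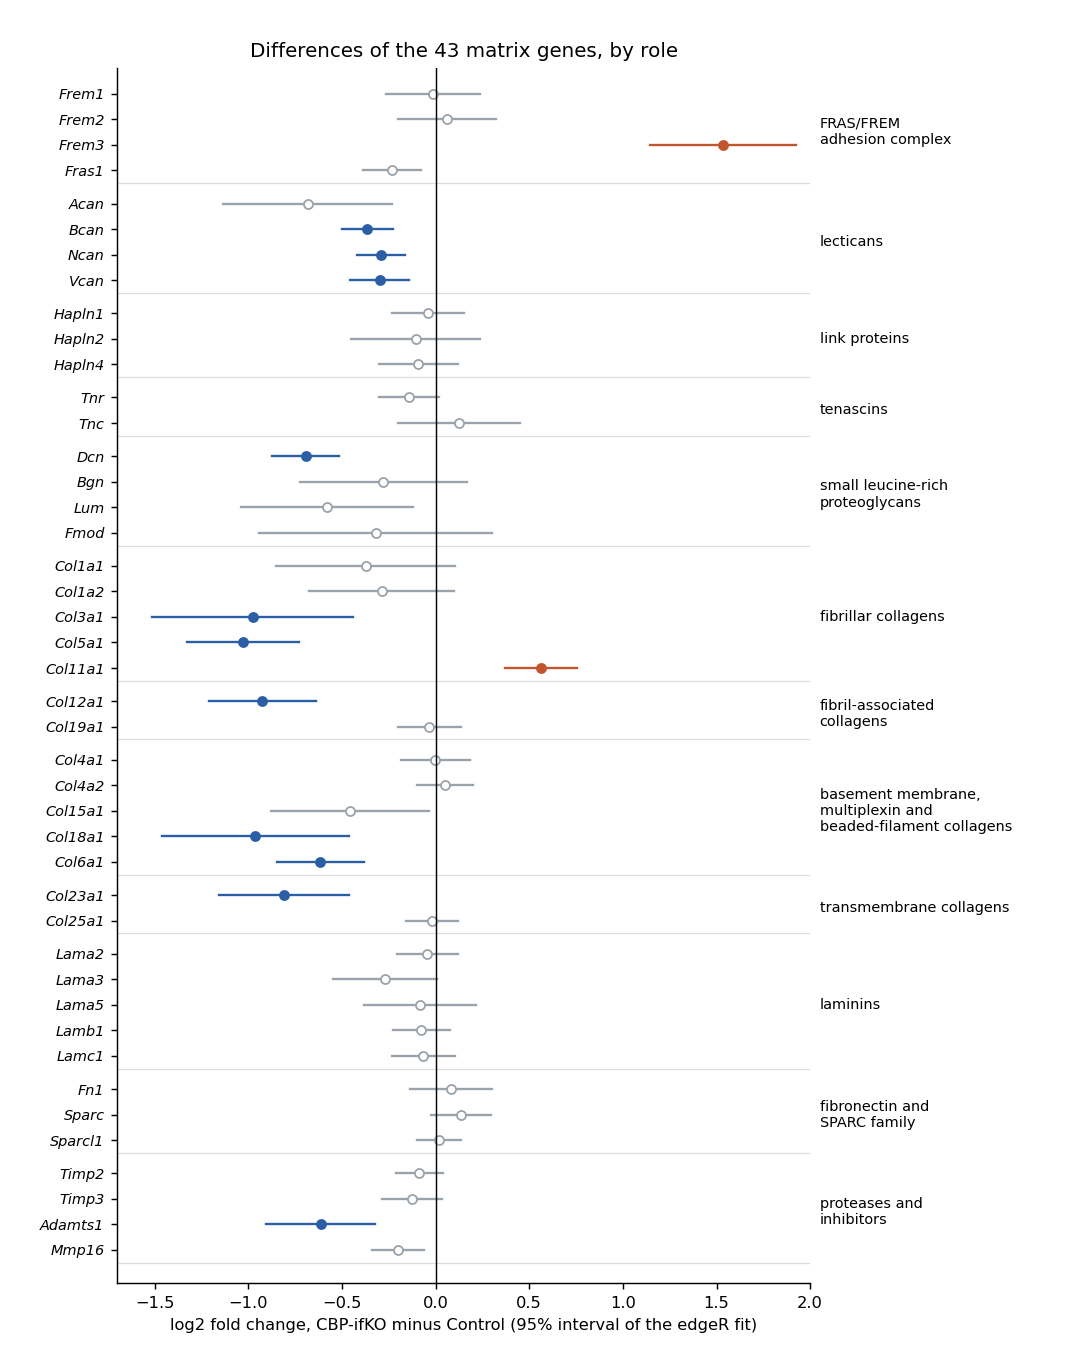
Log2 fold change (CBP-ifKO minus Control, horizontal axis) of each of the 43 matrix genes, grouped by role, with the 95% interval of the edgeR fit as a line. Filled points passed an adjusted p of 0.05, orange for higher and blue for lower, and Frem3 and Col11a1 are the 2 filled points to the right of 0.

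The largest increase of the 43 genes was in Frem3. FRAS1 and the FREM proteins are large secreted or membrane-anchored proteins with chondroitin sulfate proteoglycan-like repeats that join epithelial basement membranes to the tissue beneath. Frem3 (ENSMUSG00000042353, GRCm38 chromosome 8, 80611080 to 80695356) had 2.63, 4.12 and 4.26 CPM in Control against 9.79, 9.73 and 12.5 CPM in CBP-ifKO, from 28, 48 and 43 counts and 101, 148 and 152 counts. Every CBP-ifKO library was above every Control library, and the mean rose from 3.67 ± 0.91 to 10.7 ± 1.59 CPM (SD, n = 3), which is 2.91-fold (log2 fold change 1.53 ± 0.19 SE, adjusted p 1.3e-04 by edgeR).

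None of its 3 relatives passed as higher. Fras1, the founding gene of the family and its most abundant member here, had 66.8, 63.6 and 71.7 CPM in Control against 61.3, 55.6 and 55.3 CPM in CBP-ifKO (a log2 fold change of -0.23 ± 0.073 SE, adjusted p 0.068 by edgeR). The Fras1 groups did not overlap, and without Control replicate 2 the gene passed as lower (edgeR adjusted p 0.037). Frem1 ranged from 11.70 to 12.97 CPM in Control and from 11.3 to 13.2 CPM in CBP-ifKO, and the 95% interval of its log2 fold change ran from -0.27 to 0.24. Frem2 ranged from 10.7 to 11.9 and from 10.8 to 12.8 CPM, with an interval from -0.20 to 0.32. For both genes the libraries of the 2 groups overlapped. Per kilobase of exon, Frem3 stood at 0.109 to 0.180 of the Fras1 level in Control and at 0.443 to 0.627 of it in CBP-ifKO. Frem3 was below Frem1 and Frem2 per kilobase in every Control library and above both in every CBP-ifKO library. Frem1 and Frem2 did not pass, so this order restates the rise of Frem3.

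On chromosome 8, 3 genes tested beyond Frem3 did not pass. Smarca5, which lies 3150 bases beyond Frem3 and encodes a chromatin remodeler, had means of 57.3 CPM in Control against 58.6 CPM in CBP-ifKO (a log2 fold change of 0.031 ± 0.066 SE, adjusted p 0.84 by edgeR). Gab1 and Usp38, which lie farther on, had log2 fold changes of -0.036 and 0.073 and did not pass.

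The promoters of both genes that rose and of 2 that fell are shown because CBP was first known as a partner of CREB, which binds the cAMP response element. The table of RefSeq promoters (GRCm38.p6) held 35 windows for 32 of the 43 genes, of which the 250 bases before the start were used. Each is printed 5′ to 3′ on the strand of its gene. Capitals mark the GC box (GGGCGG on either strand) and the half-site of the cAMP response element (TGACG on either strand).
Frem3, chr8:80610789-80611038, plus strand: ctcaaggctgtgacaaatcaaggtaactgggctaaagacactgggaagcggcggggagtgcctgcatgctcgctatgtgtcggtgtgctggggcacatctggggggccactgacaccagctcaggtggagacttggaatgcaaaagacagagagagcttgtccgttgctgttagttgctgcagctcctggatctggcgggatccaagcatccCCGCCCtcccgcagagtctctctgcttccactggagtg
Col11a1, chr3:114030290-114030539, plus strand: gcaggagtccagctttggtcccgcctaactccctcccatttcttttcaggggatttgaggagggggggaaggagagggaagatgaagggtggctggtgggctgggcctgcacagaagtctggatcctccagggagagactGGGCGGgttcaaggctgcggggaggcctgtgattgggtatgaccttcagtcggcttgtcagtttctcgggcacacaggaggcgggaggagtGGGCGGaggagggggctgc
Col5a1, chr2:27886175-27886424, plus strand: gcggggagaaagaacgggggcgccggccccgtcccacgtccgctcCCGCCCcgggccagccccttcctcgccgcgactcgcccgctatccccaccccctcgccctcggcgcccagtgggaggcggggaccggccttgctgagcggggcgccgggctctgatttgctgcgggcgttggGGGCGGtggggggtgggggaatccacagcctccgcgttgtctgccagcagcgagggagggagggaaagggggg
Adamts1, chr16:85803114-85803363, minus strand: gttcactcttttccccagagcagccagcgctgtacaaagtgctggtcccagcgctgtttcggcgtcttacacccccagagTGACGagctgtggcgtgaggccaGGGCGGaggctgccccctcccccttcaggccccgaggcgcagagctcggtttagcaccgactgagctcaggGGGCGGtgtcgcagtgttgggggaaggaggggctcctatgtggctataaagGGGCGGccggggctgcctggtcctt

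Frem3 holds 1 GC box, Col11a1 and Col5a1 hold 2 each, and Adamts1 holds 3 GC boxes and 1 half-site. Of the called genes with a window, only Adamts1 holds the half-site, so the 2 lower genes printed do not stand for the other lower genes. None of the 35 windows holds the full response element, TGACGTCA, which 1.55% of the 32851 windows of all genes hold. The half-site, which the full element contains, is in 5.71% of the member windows (Adamts1 and Lama5) and in 17.8% of all windows, and the GC box is in 57.1% and 32.7%. The member windows have a median GC content of 59.6%, beside 52.4% for all windows. These are matches of letters in 250 bases, and they say nothing of what binds there.

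Among the perineuronal net genes, read as RNA of whole hippocampus, 3 of the 4 lecticans fell, and none of the 3 link proteins or 2 tenascins passed. Over all genes tested 6.39% passed, 4.99% as lower, so no call among so few genes sets those families apart. The nets themselves were not measured. Bcan (brevican, the main lectican of the adult brain) had 117.1, 124.4 and 110.9 CPM in Control against 92.4, 88.5 and 93.1 CPM in CBP-ifKO, a fall to 77.8% of the Control mean (log2 fold change -0.36 ± 0.064 SE, adjusted p 0.0025 by edgeR). Ncan (neurocan) had 178.5, 173.7 and 191.9 CPM in Control against 152.5, 142.9 and 149.0 CPM in CBP-ifKO and fell to 81.7% (log2 fold change -0.29 ± 0.061 SE, adjusted p 0.0075 by edgeR). Vcan (versican) had 57.7, 51.6 and 55.3 CPM in Control against 43.3, 46.9 and 43.3 CPM in CBP-ifKO and fell to 81.1% (log2 fold change -0.30 ± 0.074 SE, adjusted p 0.022 by edgeR). For all 3 genes the highest CBP-ifKO library lay under the lowest Control library, where 25.6% of all genes tested did not overlap in either direction.

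Acan (aggrecan, the lectican most used to mark perineuronal nets) was the scarcest of the 4, with 4.98, 4.12 and 6.74 CPM in Control against 3.59, 3.48 and 2.72 CPM in CBP-ifKO. Its groups did not overlap either, but its difference did not pass (log2 fold change -0.68 ± 0.21 SE, adjusted p 0.067 by edgeR), and it passed without Control replicate 2 (edgeR adjusted p 0.021). Acan was the gene nearest to the threshold from outside, and Col3a1 (edgeR adjusted p 0.029) was the nearest from inside. Summed per kilobase, the 4 lecticans had 58.3 to 58.9 CPM in Control against 45.4 to 47.4 CPM in CBP-ifKO.

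The lectican calls depended on the fit more than that of Frem3. With GC and length trends removed, the log2 fold change of Bcan was -0.15 (edgeR adjusted p 0.17) and that of Ncan -0.19 (edgeR adjusted p 0.058). Ncan was also not called without Control replicate 3 (edgeR adjusted p 0.073) or CBP-ifKO replicate 3 (edgeR adjusted p 0.054). Vcan was not called when any of Control replicates 1 and 3 and CBP-ifKO replicates 1 and 3 was left out (edgeR adjusted p 0.084, 0.10, 0.071 and 0.13) or when library totals replaced TMM scaling (edgeR adjusted p 0.054).

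**Figure D2:**
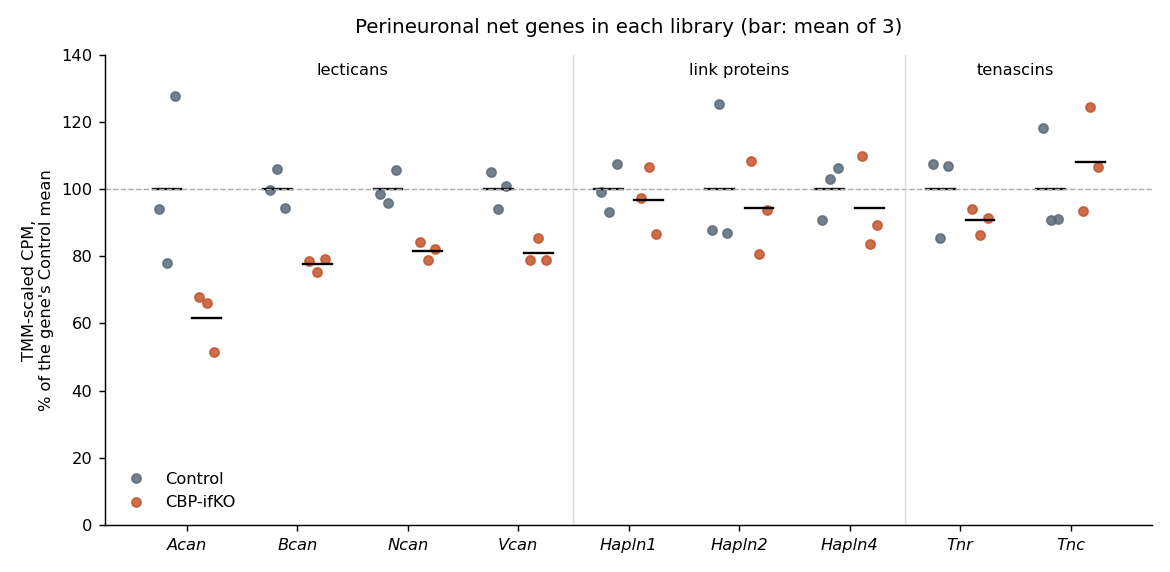
Level of each lectican, link protein and tenascin gene in each library (points), as a percent of the mean of its Control libraries, with bars for the mean of 3 libraries. All CBP-ifKO points of Acan, Bcan, Ncan and Vcan lie below all Control points, and the points of Hapln1, Hapln2, Hapln4, Tnr and Tnc overlap.

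Each link protein gene is a chromosomal neighbour of a lectican gene, so both were read in pairs. Hapln1, the link protein of most perineuronal nets, had 35.8, 33.6 and 38.8 CPM in Control against 35.1, 38.4 and 31.3 CPM in CBP-ifKO (a log2 fold change of -0.041 ± 0.091 SE, adjusted p 0.86 by edgeR). It lies 43659 bases from Vcan on chromosome 13, and the ratio of Vcan to Hapln1 per kilobase was 0.582 to 0.659 in Control and 0.499 to 0.565 in CBP-ifKO, without overlap. Hapln1 did not pass, so this ratio restates the fall of Vcan. Hapln2, which is found at nodes of Ranvier, had 9.01, 12.9 and 8.93 CPM in Control against 11.1, 8.28 and 9.63 CPM in CBP-ifKO (a log2 fold change of -0.11 ± 0.16 SE, adjusted p 0.77 by edgeR). Hapln4, a link protein of brain nets, had 35.9, 40.7 and 42.1 CPM in Control against 43.4, 33.1 and 35.3 CPM in CBP-ifKO (a log2 fold change of -0.093 ± 0.10 SE, adjusted p 0.66 by edgeR). The ratios of Bcan to Hapln2, 21519 bases apart on chromosome 3, and of Ncan to Hapln4, 2222 bases apart on chromosome 8, overlapped between the groups. The neighbour of Acan is Hapln3, which was too low to be tested.

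Tnr (tenascin-R, which crosslinks lecticans) had 350.3, 278.7 and 347.9 CPM in Control against 306.8, 281.2 and 297.7 CPM in CBP-ifKO (a log2 fold change of -0.14 ± 0.077 SE, adjusted p 0.31 by edgeR). Control replicate 2 lay below all other libraries, and without it Tnr passed as lower, with a log2 fold change of -0.23 (edgeR adjusted p 0.014). Tnc (tenascin-C, made by astrocytes) had 10.05, 7.73 and 7.74 CPM in Control against 7.95, 10.6 and 9.05 CPM in CBP-ifKO, and its log2 fold change of 0.13 ± 0.15 (SE, adjusted p 0.70 by edgeR) had a 95% interval from -0.20 to 0.45.

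All 4 small leucine-rich proteoglycans had negative log2 fold changes, and 1 of them passed. Dcn (decorin, which coats collagen fibrils) had 58.3, 57.5 and 57.9 CPM in Control, within a coefficient of variation of 0.65%, and 30.7, 38.7 and 37.4 CPM in CBP-ifKO. The mean of Dcn fell from 57.9 ± 0.38 to 35.6 ± 4.28 CPM (SD, n = 3), or to 61.5% (log2 fold change -0.69 ± 0.084 SE, adjusted p 1.3e-04 by edgeR), without overlap between the groups. Lum (lumican, 46984 bases from Dcn on chromosome 10) had 5.82, 6.10 and 4.07 CPM in Control against 3.20, 4.53 and 2.80 CPM in CBP-ifKO (a log2 fold change of -0.58 ± 0.22 SE, adjusted p 0.13 by edgeR). Bgn (biglycan) and Fmod (fibromodulin), at means of 5.13 and 3.07 CPM in Control, had log2 fold changes of -0.28 and -0.32 with overlapping groups.

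The fibrillar collagen genes moved in both directions. Col11a1, a minor chain that sets fibril diameter, had 20.7, 20.3 and 19.3 CPM in Control against 31.5, 29.4 and 28.3 CPM in CBP-ifKO. The mean of Col11a1 rose from 20.1 ± 0.68 to 29.7 ± 1.62 CPM (SD, n = 3), or 1.48-fold (log2 fold change 0.56 ± 0.091 SE, adjusted p 0.0013 by edgeR). Col5a1, the related chain that starts fibrils, had 12.02, 14.34 and 13.98 CPM in Control against 5.72, 6.44 and 7.57 CPM in CBP-ifKO. It fell to 48.9% of the Control mean (log2 fold change -1.03 ± 0.14 SE, adjusted p 3.6e-04 by edgeR), the lowest log2 fold change of the 43 genes. Neither gene overlapped between the groups.

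Chains of types V and XI assemble with each other, so their ratios per kilobase were set side by side. Col11a1 stood at 0.929 to 1.15 of Col5a1 in Control and at 2.51 to 3.70 of it in CBP-ifKO. Relative to Col11a2, its partner chain, Col11a1 went from 0.437 to 0.535 in Control to between 0.908 and 1.07 in CBP-ifKO. The ratio of Col5a1 to Col5a2 was 0.839 to 1.08 in Control and 0.556 to 0.758 in CBP-ifKO. None of these 3 ratios overlapped between the groups, but they restate differences of the single genes. Col11a1 and Col5a1 passed in opposite directions, and Col11a2 and Col5a2 also passed as lower. Col5a2 had means of 16.1 CPM in Control against 11.8 CPM in CBP-ifKO (log2 fold change -0.44, adjusted p 0.028 by edgeR). It was not called with DESeq2 or when any library other than Control replicate 2 was left out. Col11a2 was not called with GC and length trends removed.

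Col3a1, the fibril collagen of soft connective tissue, was the scarcest member per kilobase, with 3.19, 3.09 and 2.68 CPM in Control against 1.84, 1.58 and 1.15 CPM in CBP-ifKO (34, 36 and 27 counts and 19, 24 and 14 counts). It fell (log2 fold change -0.98 ± 0.25 SE, adjusted p 0.029 by edgeR), but it was not called without CBP-ifKO replicates 2 or 3 or any of the 3 Control replicates, each left out alone (edgeR adjusted p 0.057 to 0.14), and DESeq2 gave it no adjusted p. The chains of collagen I, Col1a1 and Col1a2, had log2 fold changes of -0.37 and -0.29 that did not pass, at 2.75 and 6.17 CPM in Control. The groups of Col1a1 did not overlap and those of Col1a2 did.

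Of the fibril-associated collagens, Col12a1, which links fibrils to other matrix, had 28.1, 18.8 and 22.5 CPM in Control against 12.8, 11.4 and 12.4 CPM in CBP-ifKO. Col12a1 fell to 52.7% (log2 fold change -0.93 ± 0.13 SE, adjusted p 5.8e-04 by edgeR), with the Control libraries more spread than those of CBP-ifKO and no overlap. Col19a1, a collagen made by hippocampal interneurons, ranged from 44.1 to 50.9 CPM in Control and from 43.9 to 49.4 CPM in CBP-ifKO, with a 95% interval of its log2 fold change from -0.20 to 0.13.

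Of the basement membrane and beaded-filament collagens, Col6a1 and Col18a1 fell, and Col4a1, Col4a2 and Col15a1 did not pass. Col4a1 and Col4a2, transcribed head to head with 22 bases shared on chromosome 8, had means of 58.0 and 59.3 CPM in Control and log2 fold changes of -0.0026 and 0.051, with intervals from -0.19 to 0.18 and from -0.10 to 0.20. With GC and length trends removed, Col4a2 passed as higher (log2 fold change 0.27, adjusted p 0.029 by edgeR). Col6a1, which forms beaded filaments, had 39.8, 39.5 and 38.9 CPM in Control against 23.6, 22.1 and 31.5 CPM in CBP-ifKO. It fell to 65.4% (log2 fold change -0.62 ± 0.11 SE, adjusted p 0.0027 by edgeR), with CBP-ifKO replicate 3 nearest to the Control libraries.

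Col18a1, whose C-terminal fragment is endostatin, had 4.60, 3.86 and 2.88 CPM in Control against 1.94, 1.77 and 2.14 CPM in CBP-ifKO (a log2 fold change of -0.96 ± 0.24 SE, adjusted p 0.022 by edgeR). It fell in this fit without overlap but was not called with GC and length trends removed (edgeR adjusted p 0.085) or without any of the CBP-ifKO replicates or Control replicate 1 (edgeR adjusted p 0.056 to 0.12), and DESeq2 gave it no adjusted p. Col15a1, the other multiplexin, had 3.85 to 4.07 CPM in Control against 2.55 to 3.39 CPM in CBP-ifKO, without overlap, and did not pass (log2 fold change -0.46, adjusted p 0.20 by edgeR).

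The transmembrane collagens also divided. Col23a1 had 10.6, 9.96 and 12.6 CPM in Control against 4.85, 6.24 and 7.65 CPM in CBP-ifKO, a fall to 56.5% (log2 fold change -0.81 ± 0.16 SE, adjusted p 0.0064 by edgeR) without overlap. Col25a1, a neuronal collagen that is found in amyloid plaques, had 124.1 to 145.8 CPM in Control against 132.3 to 137.1 CPM in CBP-ifKO, with a 95% interval of its log2 fold change from -0.16 to 0.12.

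**Figure D3:**
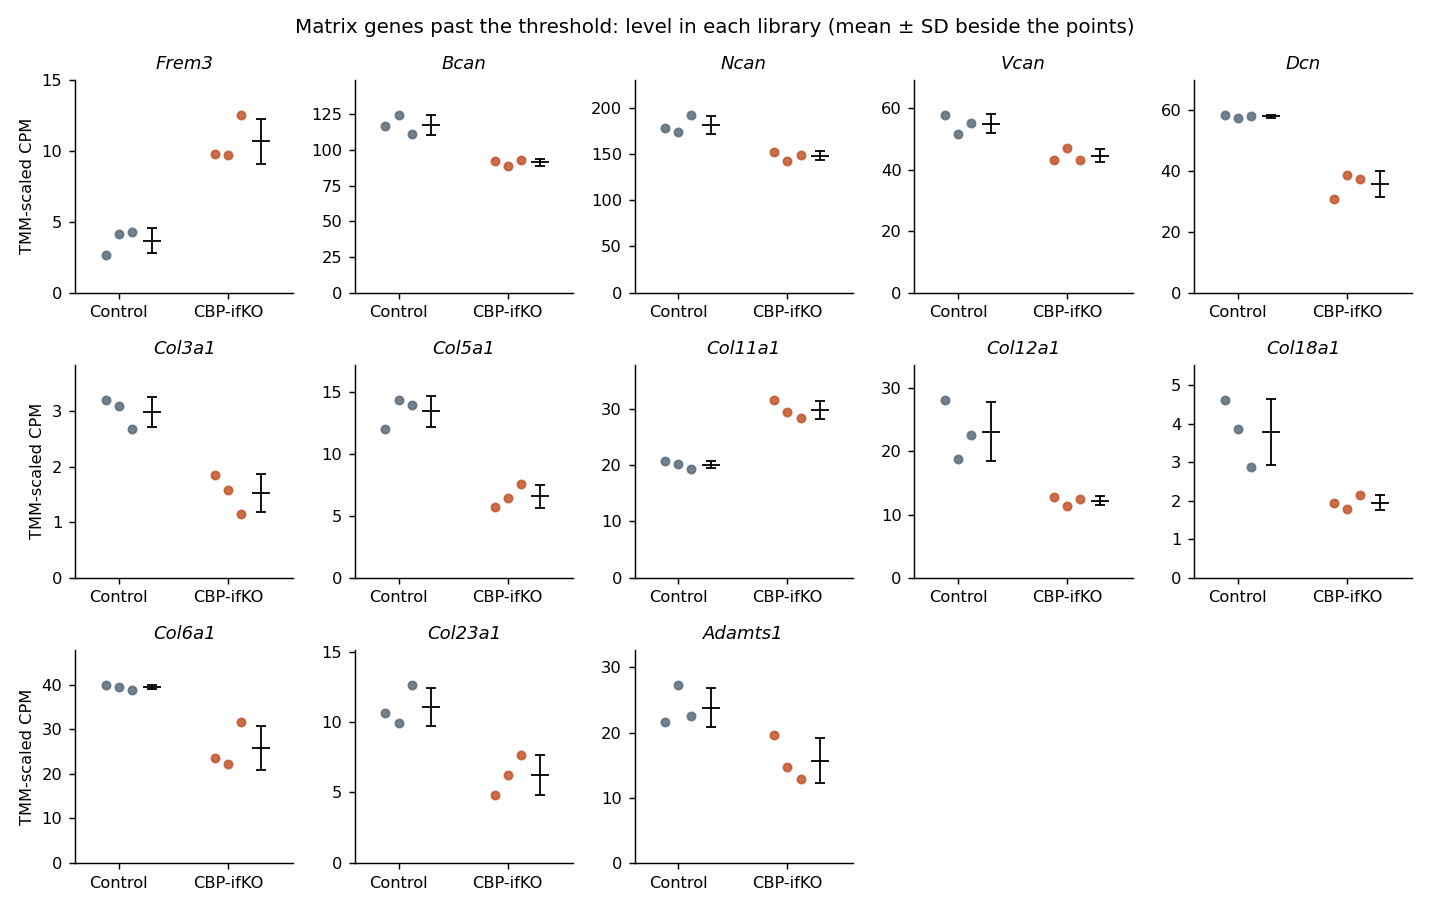
TMM-scaled CPM in each library of the 13 matrix genes that passed the threshold (vertical axes from 0, 1 panel per gene), with the mean ± SD of 3 libraries beside the points. In each of the 13 panels the Control and CBP-ifKO points do not overlap, and Frem3 and Col11a1 are the 2 panels in which CBP-ifKO is higher. The genes were chosen by the threshold on these same libraries, so the lack of overlap adds no support.

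No laminin chain passed. Lamb1 and Lamc1, the β and γ chains of the main laminin of brain vessels, had means of 63.2 and 50.9 CPM in Control, and Lama2, a vessel α chain, had 45.8 CPM. Their log2 fold changes were -0.076, -0.065 and -0.045, and the per-kilobase ratio of Lamb1 to Lamc1 stayed between 0.966 and 1.12 in all 6 libraries. Lama5 had a log2 fold change of -0.083 with overlapping groups. Lama3 had 11.2 to 12.5 CPM in Control against 8.80 to 10.98 CPM in CBP-ifKO, without overlap, and did not pass (log2 fold change -0.27 ± 0.13 SE, adjusted p 0.25 by edgeR).

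Fn1 and the SPARC family had positive log2 fold changes, none of which passed. Sparcl1 (hevin, a synapse-promoting protein of astrocytes) was the most abundant member, with 1390 to 1561 CPM in Control against 1473 to 1508 CPM in CBP-ifKO, and its 95% interval ran from -0.10 to 0.13. Its relative Sparc, which opposes hevin at synapses, had 128.5 to 138.7 CPM in Control against 130.6 to 163.4 CPM in CBP-ifKO (a log2 fold change of 0.14 ± 0.075 SE, adjusted p 0.32 by edgeR). Fn1 (fibronectin) had 58.4 to 69.7 and 56.6 to 79.8 CPM (log2 fold change 0.082).

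Among the proteases and inhibitors, all 4 genes were lower in every CBP-ifKO library than in any Control library, and 1 passed. Of all genes tested, 25.6% had groups without overlap in either direction. Adamts1, a protease that cuts versican and aggrecan, had 21.7, 27.2 and 22.5 CPM in Control against 19.6, 14.7 and 12.8 CPM in CBP-ifKO. Adamts1 fell to 66.0% (log2 fold change -0.61 ± 0.14 SE, adjusted p 0.012 by edgeR), but it was not called without CBP-ifKO replicate 2 or 3 (edgeR adjusted p 0.088 and 0.090). Mmp16, a membrane-bound metalloprotease, had 107.7 to 111.2 CPM in Control against 88.2 to 99.8 CPM in CBP-ifKO (a log2 fold change of -0.20 ± 0.065 SE, adjusted p 0.076 by edgeR), and it passed once GC and length trends were removed (log2 fold change -0.23, adjusted p 0.043 by edgeR). The inhibitors Timp2 and Timp3 had log2 fold changes of -0.087 and -0.12 (adjusted p 0.45 and 0.37 by edgeR). Their groups were close, with a highest CBP-ifKO library of 116.0 CPM against a lowest Control library of 118.2 CPM for Timp2. For Timp3 these were 46.0 and 46.8 CPM. Timp3 lies inside Syn3 and shares 21.3% of its exon bases with Syn3 on the opposite strand, and whether counting used strand was not given in the sources used here. For no other of the 43 genes did another gene share more than 3.86% of the exon bases.

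The levels of the 43 genes, per kilobase of exon, spanned 3 orders of magnitude. Sparcl1 led with 501.7 ± 29.1 CPM per kilobase in Control (SD, n = 3), followed by Sparc (35.2 ± 1.35), Timp2 (30.9 ± 0.55), Bcan (28.9 ± 1.66), Tnr (25.3 ± 3.16) and Ncan (25.2 ± 1.31). The libraries of Timp2 and Bcan overlapped, as did those of Tnr and Ncan. At the lower end were Frem3 (0.58 ± 0.14), Col18a1 (0.54 ± 0.12), Col1a2 (0.50 ± 0.11), Col1a1 (0.42 ± 0.034) and Col3a1 (0.30 ± 0.028). Each of these overlapped its neighbour in the order in Control, except Col3a1, which lay below Col1a1 in every library. In CBP-ifKO, Frem3 reached 1.67 ± 0.25 CPM per kilobase, near the Control levels of Col11a1 (1.58 ± 0.053) and Col5a1 (1.57 ± 0.15). Of the 13 genes that passed, only Bcan and Ncan were above 10 CPM per kilobase in Control. Using the longest transcript as the length moved 27 of the 43 levels by more than 1 SD, Col1a2 and Col25a1 among them, to 1.15 and 20.4 CPM per kilobase.

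**Figure D4:**
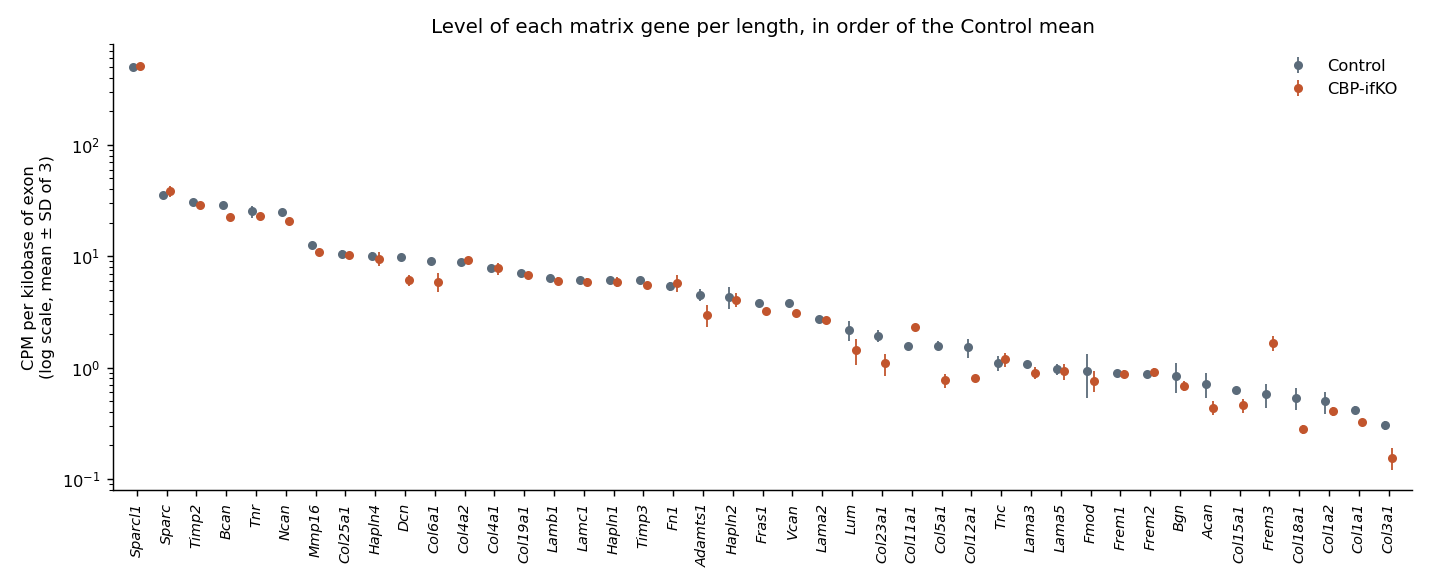
Mean level of each of the 43 matrix genes per kilobase of exon in Control and CBP-ifKO (log axis, error bars for the SD of 3 libraries), ordered by the Control mean. Sparcl1 stands alone at 501.7 CPM per kilobase in Control, and Frem3, near the right-hand end, is the gene with the widest gap upward.

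The 11 genes that fell had a median GC content of 55.1% in the longest transcript, beside 52.5% for all 43 members and 48.3% for all genes tested. Across all genes tested, GC content and log2 fold change were related (Spearman's rho -0.29, given as a description across genes of the same 6 libraries). Across the 43 members rho was -0.19. The 2 genes that rose had a median GC content of 49.2%, and the 30 not called had 52.5%. Bcan, Ncan and Col18a1 were not called with GC and length trends removed. Dcn had the lowest GC content of the 43 genes, 37.4%, and was called in every alternative fit, as were Frem3, Col5a1, Col11a1, Col12a1, Col6a1 and Col23a1.

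Other matrix genes were read from 6 lists by family, 158 genes in all, of which 143 were tested. They gave 1 higher and 19 lower calls (14.0%, with a median log2 fold change of -0.16), beside 6.39% of all genes. The higher gene was Npnt (nephronectin, a ligand of integrin α8β1), with 19.5 ± 1.85 CPM in Control against 28.5 ± 2.89 CPM in CBP-ifKO (a log2 fold change of 0.56 ± 0.10 SE, adjusted p 0.0041 by edgeR). Among small proteoglycans and glycoproteins, 7 of 30 fell, including Fbln2 (fibulin-2, log2 fold change -1.27), Ogn (osteoglycin, -1.13), Podn (podocan, -1.10), Thbs3 (thrombospondin-3, -1.02), Fbln1 (-0.70) and Efemp1 (fibulin-3, -0.52). Among other collagens, 4 of 23 fell, Col22a1 by 0.86 and Col11a2 by 0.48 on the log2 scale. Col11a2 was not called with GC and length trends removed (log2 fold change -0.18, adjusted p 0.36 by edgeR) or without CBP-ifKO replicate 3 (edgeR adjusted p 0.091). Col22a1 was not called without CBP-ifKO replicate 2 or 3 or Control replicate 2 or 3 (edgeR adjusted p 0.078 to 0.18). Podn and Efemp1 were not called when any library other than Control replicate 2 was left out (edgeR adjusted p up to 0.13 for both), Podn also not with GC and length trends removed (edgeR adjusted p 0.066), and Fbln1 was not called without CBP-ifKO replicate 2 (edgeR adjusted p 0.074).

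Of 17 other hyaluronan, chondroitin sulfate and tenascin genes, 3 fell, among them Chpf (which lengthens chondroitin chains, log2 fold change -0.65) and Cspg4 (the NG2 proteoglycan, -0.57). Of 29 matrix receptors, 4 fell, including Gpc1 (glypican-1, -0.51). Of 29 other proteases, inhibitors and crosslinking enzymes 1 fell, and of 15 other basement membrane genes none did, Npnt being their 1 call. Over all genes tested 4.99% fell, and neither the protease list nor the basement membrane list was above that share. The count of 20 was 9 without CBP-ifKO replicate 2, 10 without CBP-ifKO replicate 3 and 10 without Control replicate 3.

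Markers of other cell types moved beside these genes. Over all genes tested, 6.39% passed, 4.99% as lower, and 25.6% had groups without overlap. The last is a share of single genes, and none was computed for summed lists. Of 10 markers of meningeal and perivascular fibroblasts, 8 were tested, all 8 with negative log2 fold changes, and 2 fell (Aldh1a2 and Cyp1b1). Foxc2 and Igf2 of that list were near 0, with group means of at most 0.277 CPM. The summed level of the list was 35.5 to 44.1 CPM in Control against 23.7 to 29.0 CPM in CBP-ifKO. Of 8 markers of oligodendrocyte precursors, 3 fell (Pdgfra, Gpr17 and Lhfpl3). The sum of the 8 was 176.9 to 191.5 CPM in Control against 141.4 to 144.5 CPM in CBP-ifKO. Neither sum overlapped between the groups.

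Among neuronal lists, 5 of 6 CA1 markers fell (sums of 353.9 to 365.7 and 224.3 to 237.6 CPM), 2 of 6 CA2 markers fell (138.0 to 156.1 and 91.2 to 101.5 CPM) and 1 of 5 CA3 markers fell (228.2 to 234.9 and 173.2 to 196.8 CPM). The CA2 sum rested on Rgs14, and without it, a choice made after seeing the data, the sums of the other 5 CA2 markers overlapped (69.5 to 71.4 and 61.2 to 70.7 CPM). Of 10 interneuron markers 2 fell, Slc32a1 and Sst, with sums of 819.4 to 831.1 CPM in Control against 749.5 to 794.9 CPM in CBP-ifKO. The sums of the astrocyte, endothelial, mural, microglial, oligodendrocyte, choroid plexus, dentate granule and general excitatory lists overlapped between the groups, and none of 10 astrocyte and 10 endothelial markers passed. In 3 of these lists single markers passed, namely 4 of 8 dentate granule markers (Plk5, Tdo2 and Trpc6 lower and Lct higher), 2 of 9 tested mural markers (Vtn and Myh11, both lower) and 1 of 6 general excitatory markers (Nrgn, lower with a log2 fold change of -0.73). Over all genes tested 6.39% passed, 4.99% as lower. A list of 10 markers without a call therefore does not show that a cell type was unchanged. The part of any cell type in the differences of the matrix genes was not tested.

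**Figure D5:**
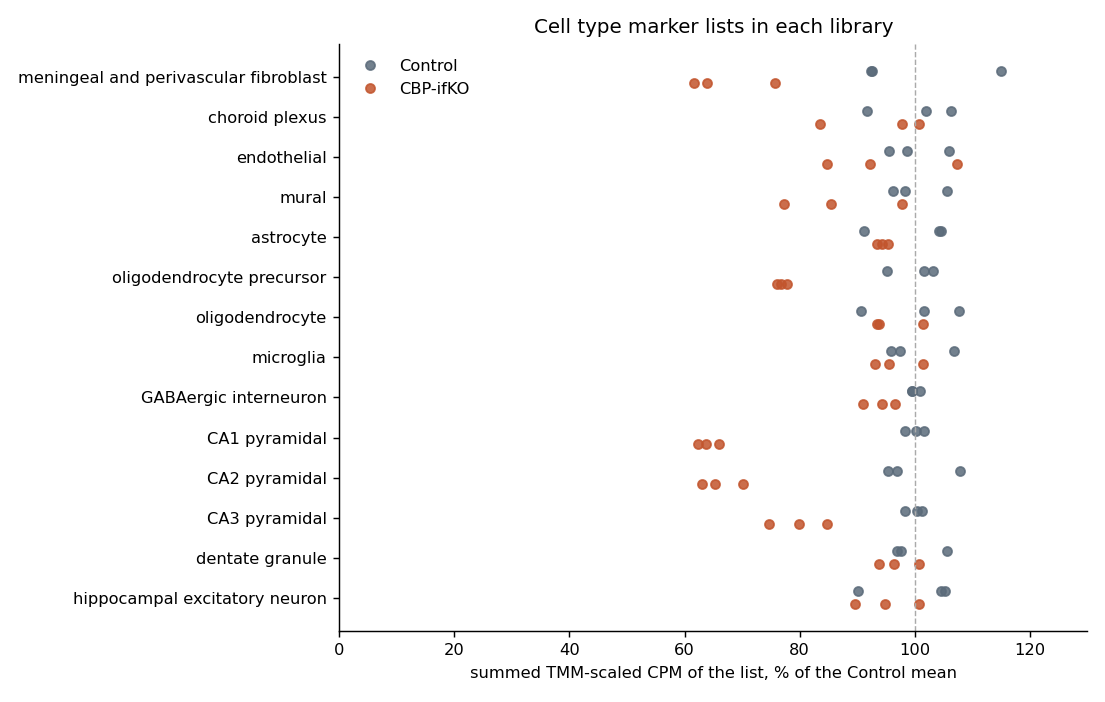
Summed TMM-scaled CPM of 14 lists of cell type markers in each library (points), as a percent of the mean of the Control libraries. The fibroblast, oligodendrocyte precursor, interneuron, CA1, CA2 and CA3 sums are lower in all 3 CBP-ifKO libraries than in any Control library, and the other 8 lists overlap.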

How the data were processed

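The 6 libraries were single-end with reads of 50 nt. The authors trimmed adapters (Trim Galore 0.6.4), aligned reads with STAR 2.6.1 to GRCm38, removed poorly mapped reads and counted exonic reads with Rsubread. Their deposited table holds raw, unnormalized counts, and the strand setting was not given in the sources used here. Groups and replicate numbers came from the sample titles. The 43 genes, the other matrix lists and the marker lists were chosen with earlier results of these data known.

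Counts were fitted with the edgeR quasi-likelihood F-test (edgeR 4.0.16, R 4.3.3), with TMM scaling and filterByExpr (minimum count 10, minimum total 15). Adjusted p-values are by Benjamini-Hochberg over all 17981 genes, with a threshold of 0.05 and no fold cut-off. Symbols and coordinates came from GENCODE for the same build (99.57% of identifiers matched), gene length for levels per kilobase from the deposited table. Intervals and p-values measure the spread between pooled libraries. Values in every library are given for genes past the threshold and for the FRAS/FREM, lectican, link protein and tenascin genes, other members being given by ranges, and at most 12 other matrix genes are named.

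Alternatives were DESeq2 1.42.0, limma-voom (limma 3.58.1), RLE scaling, library totals, no filter, 10 counts in every library, GC and length offsets (splines, 5 degrees of freedom), a replicate block and each library left out.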

Additional observations from a re-analysis of the deposited data

How the results depend on the processing

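Of the 13 matrix genes called, 13 kept their sign in every alternative and 7 were called in every one. Leaving out each library in turn gave between 8 and 15 calls among the 43 genes, between 6 and 13 of them lower, with 8 without CBP-ifKO replicate 3. Over the whole table the same step gave 498 to 1326 calls (498 without CBP-ifKO replicate 2, 526 without CBP-ifKO replicate 3 and 546 without Control replicate 3), and among the other matrix genes 9 to 19 calls, 8 to 18 of them lower. DESeq2 and the GC and length offsets each gave 12 lower calls among the other matrix genes. The deviations of same-numbered libraries correlated by 0.077, 0.037 and 0.0022. These values cannot settle whether such libraries shared a batch, which the sample titles do not say. With the replicate block, 13 matrix genes and 1210 genes of the table were called. With the block and the GC and length offsets, 14 and 1839 were called, beside 12 and 1098 with the offsets alone.

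Signs changed only among matrix genes that were not called. With GC and length offsets the log2 fold change was 0.0034 for Frem1, 0.022 for Hapln2, 0.032 for Hapln4, 0.16 for Col4a1, 0.14 for Lama5, 0.0021 for Lamc1 and -0.0027 for Sparcl1. With the replicate block and these offsets it was 0.025 for Hapln2, 0.029 for Hapln4, 0.16 for Col4a1, 0.14 for Lama5, 0.0038 for Lamc1 and -0.0012 for Sparcl1. With library totals, which moved the median of all genes from -0.0033 to 0.043, it was 0.030 for Frem1, 0.0058 for Hapln1, 0.013 for Col19a1, 0.043 for Col4a1, 0.028 for Col25a1 and 0.0016 for Lama2. For Col4a1 it was 0.0065 with DESeq2, 0.0042 with RLE scaling and 0.0058 without a filter. Leaving out single libraries, it ran from -0.072 to 0.053 for Frem1, -0.11 to 0.044 for Hapln1, -0.21 to 0.10 for Hapln2, -0.087 to 0.013 for Col19a1, -0.095 to 0.092 for Col4a1, -0.074 to 0.032 for Col25a1, -0.20 to 0.029 for Lama5, -0.12 to 0.0042 for Lamc1, -0.055 to 0.20 for Fn1 and -0.023 to 0.070 for Sparcl1. The cause of these changes was not tested. Depth limits the genes of a few CPM, such as Col3a1, Col18a1, Col1a1 and Acan, whose fold changes have standard errors above 0.20.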
